A study of Mus musculus with 28 samples.

Results

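The genes described are 10 members of the BCL2 family, chosen by symbol from the 40021 genes of the table of RPKM values, which were measured by mRNA-Seq in microglia sorted from single mouse retinas. They comprise 6 listed as pro-survival members (Bcl2, Bcl2l1, Mcl1, Bcl2a1a, Bcl2a1b and Bcl2a1d) and 4 listed as pro-death members (Bax, Bak1, Bcl2l11 and Bid). RPKM is the number of reads assigned to a gene, scaled to the length of its transcript and the depth of its library, so that levels of different genes can be set side by side. All 28 retinas came from male mice heterozygous for Cx3cr1CreER:R26-tdTomato on a C57BL/6 background, in which tamoxifen given as eye drops lets a Cre recombinase expressed from Cx3cr1, the fractalkine receptor gene, switch on the red fluorescent protein tdTomato. Live cells with high tdTomato were sorted from each retina. There were 10 naïve retinas, and 6, 5 and 7 retinas of the 4 h, 18 h and 2-week groups, timed from when lipopolysaccharide (LPS), a bacterial cell wall component, was injected into the vitreous to induce endotoxin-induced uveitis (EIU). Experiment 1 gave 6 naïve, 3, 4 and 4 of these retinas and experiment 2 gave 4, 3, 1 and 3. No retinas injected with vehicle alone were analysed here, so that the injection and the LPS cannot be told apart. Tamoxifen was given at between 4 and 5 weeks of age, and LPS followed 4 weeks after it. The labels do not tie retinas to mice, so that p-values measure the spread between retinas, some of which may be the left and right eyes of the same mouse.

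The BCL2 family sets whether a cell dies through its mitochondria. BAX and BAK form pores in the outer mitochondrial membrane that release cytochrome c. BCL2, BCL-XL (the product of Bcl2l1), MCL1 and A1 (the product of the Bcl2a1 genes) hold them back, while BH3-only proteins such as BIM (Bcl2l11) and BID bind the pro-survival proteins or activate BAX and BAK. MCL1 is a short-lived protein, and A1 is known as a survival protein of blood cells whose gene responds to NF-kappa B, a transcription factor activated by LPS through toll-like receptor 4. The mouse has several A1 genes, copies of each other on chromosome 9.

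The A1 genes carry most of the change described here, and their sequences show how far they can be told apart. In the GRCm38 annotation Bcl2a1d lies at chr9:88723285-88731914 on the minus strand, and Bcl2a1a at chr9:88956900-88962419 and Bcl2a1b at chr9:89199209-89207827 on the plus strand. The first 60 coding bases of each are shown because they hold 6 of the 12 positions at which the coding sequences of 519 bases differ, with those positions in capitals.
Bcl2a1a: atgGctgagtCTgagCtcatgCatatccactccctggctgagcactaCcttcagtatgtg
Bcl2a1b: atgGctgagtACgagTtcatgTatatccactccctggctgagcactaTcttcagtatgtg
Bcl2a1d: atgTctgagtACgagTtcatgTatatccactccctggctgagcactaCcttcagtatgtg
Over the whole coding sequence, identity was 97.88% between Bcl2a1a and Bcl2a1b, 98.65% between Bcl2a1a and Bcl2a1d and 98.84% between Bcl2a1b and Bcl2a1d. Of all stretches of 75 bases, the length of the reads, the share found in no other copy was 44.83% for the Bcl2a1a transcript, 56.53% for Bcl2a1b and 32.45% for Bcl2a1d. The division of reads between the copies is therefore uncertain, and the sum of the RPKM values of Bcl2a1a, Bcl2a1b, Bcl2a1d and the shorter copy Bcl2a1c is given beside each copy. That sum does not depend on how reads were divided between copies of like length.

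The promoters of the A1 genes are shown because these genes rose together. RefSeq promoters of the assembly GRCm38.p6 were found for 10 of 10 members, 13 promoters in all, and the 250 bases before each start were searched on both strands. The pattern TGANTCA allows any base at its centre and is looser than the AP-1 consensus at that base. Among the members, it was found in the promoters of Bcl2a1a, Bcl2a1b and Bcl2a1d, and it was present in 6.75% of all 32851 promoters. The 3 matches all read TGAATCA, with A at the centre, so that they match the loose pattern only. The 3 promoters are copies of a shared sequence and count as a single instance. The matching letters are in capitals, the fourth copy is set beside them, and each line gives 60 bases.
Bcl2a1a (chr9:88956780-88956839, plus strand): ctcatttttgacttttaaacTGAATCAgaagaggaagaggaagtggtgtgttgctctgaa
Bcl2a1b (chr9:89199089-89199148, plus strand): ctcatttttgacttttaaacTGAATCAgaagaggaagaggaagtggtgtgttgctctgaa
Bcl2a1d (chr9:88731925-88731984, minus strand): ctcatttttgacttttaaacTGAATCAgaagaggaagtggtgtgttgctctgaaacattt
Bcl2a1c (chr9:114329885-114329944, plus strand): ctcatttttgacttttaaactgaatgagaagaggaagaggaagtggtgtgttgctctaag
The match began 120, 164 and 114 bases before the RefSeq start of Bcl2a1a, Bcl2a1b and Bcl2a1d. The NF-kappa B consensus was found in 1 of the 13 promoters, belonging to Bcl2l1, and in 7.25% of all promoters. CACGTG was found in the promoter of Bax and in 6.02% of all promoters, while TGACGTCA, TTCNNNGAA and TATAAA were found in none of the 13. No 2 matches in a member's promoter overlapped, and a match describes letters in this window and not a bound site.

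Retinas had between 7510000 and 19700000 alignments and between 6552 and 11825 genes with an RPKM of at least 1. There were 4 retinas, all of experiment 1, with under 8000 such genes (naïve 3 and 4, 18 h 4 and 2 weeks 1). Without them the same members were called against naïve retinas at 4 h and at 18 h, and none at 2 weeks. Of 10 microglial markers, all 10 had a median of at least 1 RPKM in every group, and their summed RPKM was 6626 to 13339 in naïve, 2125 to 6688 in 4 h, 3962 to 6270 in 18 h and 7758 to 12908 in 2-week retinas. Rod photoreceptor markers were also present, with sums of 2457 to 7203, 1634 to 6498, 1861 to 3137 and 2956 to 6824 in the same order of groups, and their part in the results was not tested. Of 12 neutrophil markers 11 were in the table, and Ly6g, Retnlg, Mpo, Ngp, Camp, Ltf and Mmp8 had a median of 0 in every group, while S100a8 and S100a9 had a median of 0 in every group but 18 h. In sorted populations, fewer cells of a type and less RNA per cell cannot be told apart.

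In naïve retinas, the A1 copies were the most abundant members. Bcl2a1b ranged from 216 to 924 RPKM (median 309), Bcl2a1a from 56.5 to 298 (129) and Bcl2a1d from 28.0 to 170 (71.2), in the same order in 10 of 10 retinas. Without the low-gene retinas 3 and 4, the highest values of Bcl2a1a and Bcl2a1d were 208 and 123, and the range of Bcl2a1b was the same. Bax ranged from 14.8 to 76.0 (46.2; lowest 37.7 without the low-gene retinas) and Mcl1 from 12.5 to 32.3 (17.5), and Bcl2a1d and Bax did not separate, as Bcl2a1d was higher in 7 of 10 retinas. The other members were low. Median values were 5.09 for Bid, 1.47 for Bcl2l1, 0.818 for Bcl2l11, 0.596 for Bcl2 and 0.157 for Bak1, and Bcl2 was above Bcl2l11 in 4 of 10 retinas. Bcl2a1a, Bcl2a1b and Bcl2a1d together made up 85.1% to 98.9% of the summed RPKM of the 6 pro-survival members. Levels of transcripts are not levels of protein.

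Bcl2 and Bak1 fell below the filter for testing, which asked for 1 RPKM or more in 5 or more of the 28 retinas. Bcl2, the member after which the family is named, reached 1 RPKM in 3 retinas, all naïve, with its highest values of 4.42 and 6.20 in the low-gene retinas naïve 3 and 4. In EIU retinas it ranged from 0.00962 to 0.690. Bak1 reached 1 RPKM in 1 retina, naïve 3, at 3.90, and was at most 0.431 in the EIU retinas. At the depths of these libraries 1 read of Bak1 is worth 0.0213 to 0.0558 RPKM, so that these values rest on few reads. Exons of Bcl2 and Bak1 overlap those of D630008O14Rik and Ggnbp1 on the opposite strand, as exons of Bid overlap those of Bcl2l13. Any part of these overlaps in the values was not tested. With no filter, limma gave adjusted p = 0.67, 0.67 and 0.85 for Bcl2 and 0.67, 0.88 and 0.89 for Bak1 in the 4 h, 18 h and 2-week groups, and differences in these genes were not detectable at this depth.

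The comparison of 4 h with naïve retinas addresses the early stage after the injection of LPS. The 3 A1 copies and Mcl1 were up-regulated 4 h after LPS, by between 2.65-fold (Mcl1) and 7.60-fold (Bcl2a1d), and no pro-death member passed the test in either direction. Of 8 members tested, 4 were called higher and 0 lower, where 3.68% of all 13164 genes tested were called higher and 4.39% lower. A gene was called where the limma fit on log2(RPKM + 1) gave it an adjusted p no higher than 0.05 and its fold change was 2 or more. All fold changes are on that scale, which understates changes of low genes. The median log2 fold change was 1.42 over the 8 members tested and -0.11 over all genes tested. The 3 A1 copies are near-identical in sequence and not independent of each other, so that the count and this median lean on them.

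**Figure D1:**
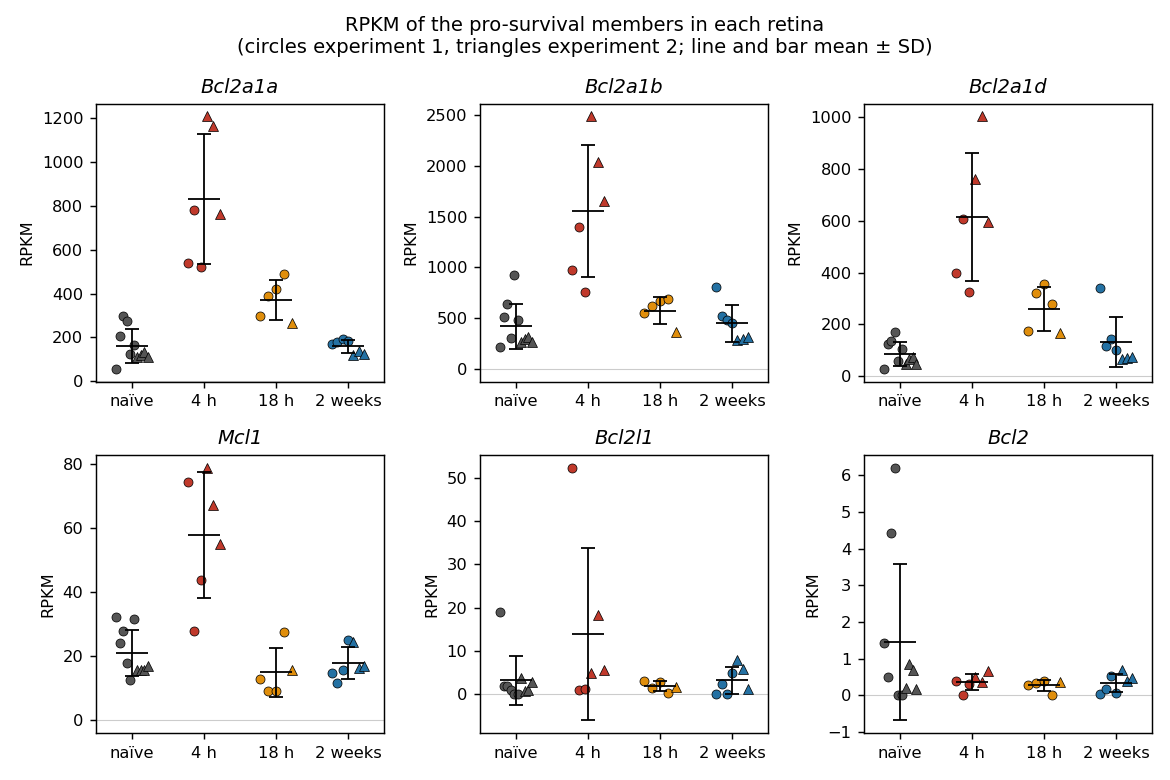
RPKM (vertical axis, a scale for each gene) of the 6 pro-survival members in each of 28 retinas by group, circles for experiment 1 and triangles for experiment 2, with the mean and SD of each group. The 6 values at 4 h lie above all 10 naïve values for Bcl2a1a and Bcl2a1d, while Bcl2 is highest in 2 naïve retinas.

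Bcl2a1d at 4 h ranged from 325 to 1003 RPKM with a median of 601. The 6 retinas lay above all 10 naïve retinas, with a log2 fold change of 2.93 (limma adjusted p = 9.2e-07, standard error 0.37). Bcl2a1a ranged from 522 to 1208 (median 772), again with no overlap with naïve retinas, and its log2 fold change was 2.44 (limma adjusted p = 3.3e-07, standard error 0.29). Such a separation upward was seen in 1.65% of all genes tested. Bcl2a1b, the most abundant copy, ranged from 755 to 2490 (median 1525), and 5 of 6 values lay above all naïve values. Its log2 fold change was 1.91 (limma adjusted p = 4.8e-05, standard error 0.31). Bcl2a1b shares exon sequence with Gm29094 on the same strand, which was listed at 17.8 to 67.9 RPKM at 4 h and at 18.0 to 86.8 in naïve retinas.

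The summed A1 copies rose from 669 ± 281 RPKM (SD, n = 10) in naïve to 3006 ± 1166 (n = 6) in 4 h retinas. All 6 retinas lay above all 10 naïve retinas, and the log2 fold change of the sum was 2.19 (limma adjusted p = 2.1e-06, standard error 0.29). The rise thus did not rest on how reads were divided between copies. The share of the sum taken by Bcl2a1d was 12.8% ± 4.5 in naïve and 20.5% ± 2.3 in 4 h retinas, and that of Bcl2a1b was 62.6% ± 10.8 and 51.1% ± 3.5. Without the 2 low-gene naïve retinas the naïve shares were 11.7% ± 3.2 and 65.8% ± 8.1. These shares were not tested.

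Mcl1, at chr3:95658788-95663176, ranged from 27.7 to 78.7 RPKM at 4 h (median 61.0), and 5 of 6 retinas lay above all naïve retinas. Its log2 fold change was 1.41 (limma adjusted p = 0.0018, standard error 0.30). Bcl2l1 at 4 h ranged from 0.983 to 52.3 RPKM (median 5.20), against 0.0211 to 19.1 in naïve retinas. Retina 1 decided much of that range, and the log2 fold change of 1.44 (95% confidence interval 0.13 to 2.75) did not pass (adjusted p = 0.19 from limma).

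The pro-death members at 4 h stayed within the naïve range in nearly all retinas. Bax ranged from 34.2 to 54.0 RPKM with a median of 36.2 (log2 fold change -0.09, 95% confidence interval -0.87 to 0.68, adjusted p = 0.93 from limma). Bid ranged from 0 to 11.8 (log2 fold change -0.24, interval -1.63 to 1.15), and Bcl2l11 from 0.489 to 3.40 (0.26, interval -0.29 to 0.80). For these genes a change of 2-fold is outside the interval for Bax in both directions and inside it for Bid. Bcl2l11 lies near the pseudocount of 1, so that its interval does not bear on a 2-fold change of the RPKM itself, and with a pseudocount of 0.1 its log2 fold change was 0.60.

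**Figure D2:**
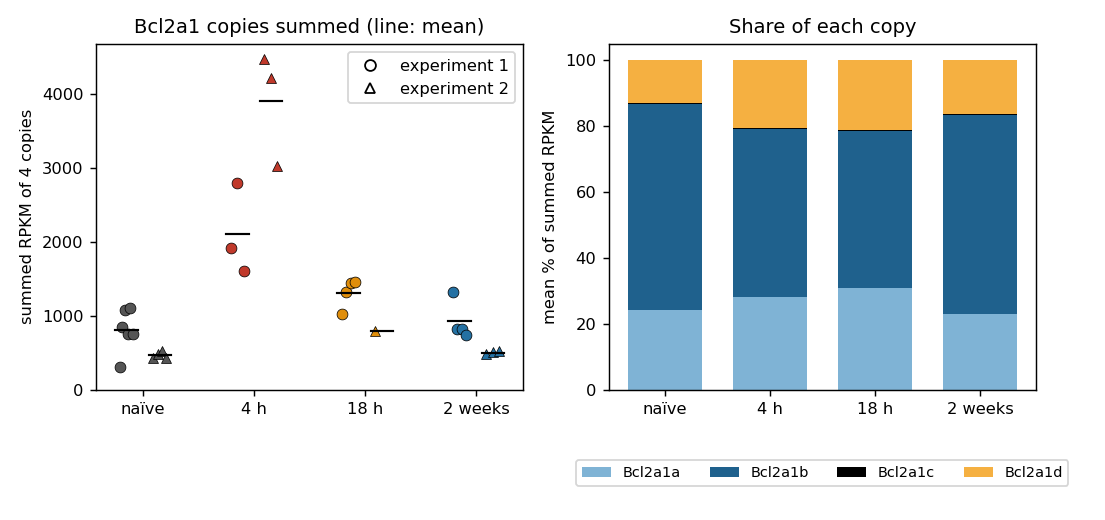
Left, summed RPKM of the 4 A1 copies in each retina by group, circles for experiment 1, triangles for experiment 2, lines for means. Right, mean share of each copy in that sum in percent, where Bcl2a1b has the largest share in every group, from 47.7% at 18 h to 62.6% in naïve retinas.

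The rise of the A1 copies at 4 h was examined within each experiment, as the plot of the summed copies shows. The naïve mean of the sum was 805 ± 291 RPKM (n = 6) in experiment 1 and 465 ± 48 (n = 4) in experiment 2, and the 4 h mean was 2107 ± 614 and 3905 ± 774 (n = 3 each). Within experiment 1 the sum rose by a log2 fold change of 1.46 (adjusted p = 0.040 from limma), and within experiment 2 by 3.05 (adjusted p = 4.3e-06). Bcl2a1a rose by 1.87 and 3.11 and Bcl2a1d by 2.27 and 3.70, both called within each experiment. Bcl2a1b differed by 1.13 in experiment 1, which was not called (adjusted p = 0.18 from limma), and by 2.83 in experiment 2. Mcl1 likewise differed by 0.93 (adjusted p = 0.47 from limma) and 1.99. In the test of the difference itself, Bcl2a1b came closest among the members (1.70, standard error 0.50, unadjusted p = 0.0022, adjusted p = 0.36 from limma). No member passed that test, as 0.0988% of all genes tested did, and 3 members (Bcl2a1a, Bcl2a1b and Bcl2a1d) had an unadjusted p under 0.05, as 4.71% of all genes tested did. These 3 are the near-identical copies and are not independent of each other. At 2 weeks no member and 0% of genes passed the same limma test, and 0 members and 2.91% of genes had an unadjusted p under 0.05.

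The comparison of 18 h with naïve retinas addresses the later acute stage of the inflammation. Bax, Bcl2a1a and Bcl2a1d were up-regulated at 18 h, by 2.60-, 2.51- and 3.28-fold relative to naïve retinas, while Mcl1 did not pass the test. Of 8 members tested 3 were called higher and 0 lower, where 2.84% of all genes tested were called higher and 1.85% lower. The median log2 fold change was 0.94 over the 8 members and -0.08 over all genes tested. Bcl2a1a and Bcl2a1d are near-identical copies here too, and their calls are not independent.

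Bax, the pore-forming effector, lies at chr7:45461697-45466898 on the minus strand. It was at 138, 165, 138, 50.7 and 95.1 RPKM in 18 h retinas 1 to 5, and 4 of 5 lay above all naïve values. The log2 fold change was 1.38 (limma adjusted p = 0.040, standard error 0.40). Retina 4, the lowest, was the low-gene retina of that group, and the lowest naïve values of 14.8 and 24.2 and the lowest 2-week value of 8.78 were those of the other low-gene retinas. Leaving out any of 8 retinas (naïve 3, 4, 8 and 9, and 18 h 1, 2, 3 and 5) ended the call, with adjusted p from 0.054 to 0.15. So did 7 of 17 other ways of fitting, among them a pseudocount of 0.1 (adjusted p = 0.051 from limma), no filter (0.083), quantile normalisation (0.093), scaling all retinas to an equal summed RPKM (0.14) and the replicate number as a block (0.14). Without the 4 low-gene retinas, a choice made after seeing the data, the log2 fold change was 1.38 with adjusted p = 0.0010. Gm45808, which shares exon sequence with Bax on the same strand, reached 0.01 RPKM in 0 of 5 retinas at 18 h and 0 of 10 naïve retinas.

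**Figure D3:**
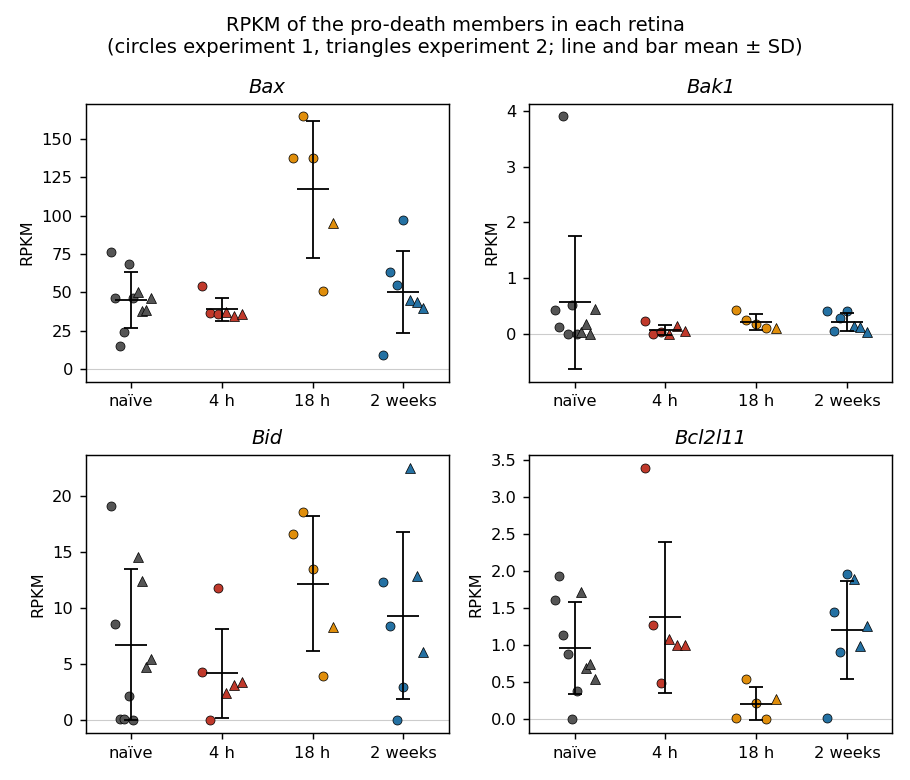
RPKM (vertical axis, a scale for each gene) of the 4 pro-death members in each of 28 retinas by group, circles for experiment 1 and triangles for experiment 2, with the mean and SD of each group. Bax lies above all naïve values in 4 of 5 retinas at 18 h, and Bak1 is at most 0.522 RPKM in all retinas but naïve 3.

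Bcl2a1d was at 173, 323, 356, 278 and 167 RPKM in 18 h retinas 1 to 5, with 4 of 5 above all naïve values (log2 fold change 1.71, limma adjusted p = 0.0067, standard error 0.39). Bcl2a1a was at 296, 387, 421, 489 and 267, with 3 of 5 above all naïve values (1.33, limma adjusted p = 0.0077, standard error 0.31). Both stood between their naïve and 4 h levels. Bcl2a1b was at 548, 616, 667, 685 and 360, inside the naïve range in every retina, and did not pass (0.56, interval -0.11 to 1.23, adjusted p = 0.39 from limma). The sum over the copies, 1210 ± 290 RPKM (n = 5), did not pass either (0.94, interval 0.31 to 1.56, adjusted p = 0.077 from limma). The calls of the 2 single copies at 18 h were therefore not shared by the sum. Fits of experiment 1 or 2 alone called no member at 18 h (log2 fold changes of 1.25 and 1.17 for Bcl2a1a, 1.62 and 1.51 for Bcl2a1d, and 1.47 and 1.13 for Bax), experiment 2 having a single retina at 18 h.

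Mcl1 at 18 h was at 12.9, 9.24, 9.20, 27.6 and 15.6 RPKM, with 2 of 5 retinas below all naïve retinas (log2 fold change -0.51, interval -1.16 to 0.14, adjusted p = 0.43 from limma). The highest value was that of the low-gene retina 4. Without the low-gene retinas the mean of Mcl1 was 11.7 ± 3.1 at 18 h and 20.5 ± 7.8 in naïve retinas. Bcl2l1 was at 3.15, 1.55, 2.80, 0.346 and 1.76, within the naïve range (-0.02, interval -1.40 to 1.37). The BH3-only genes did not pass. Bid was at 16.6, 18.6, 13.5, 3.93 and 8.27 (1.32, interval -0.16 to 2.79, adjusted p = 0.36 from limma), and Bcl2l11, which encodes BIM, was at 0.0215, 0.552, 0.219, 0 and 0.276 (-0.65, interval -1.23 to -0.07, adjusted p = 0.22 from limma). Bcl2l11 lies near the pseudocount here too, with mean RPKM of 0.214 at 18 h and 0.967 in naïve retinas. With a pseudocount of 0.1 its log2 fold change was -1.75 (adjusted p = 0.19 from limma). The lowest Bcl2l1 and Bid values were those of the low-gene retina 4.

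Transcript levels of some genes listed as markers of other cell types shifted at this time point. The summed RPKM of 8 monocyte markers was 144 to 320 at 18 h, against 9.86 to 57.0 in naïve, 6.61 to 171 in 4 h and 12.8 to 41.1 in 2-week retinas. At 18 h 2 of the 8 markers had a median of at least 1 RPKM, Ms4a4c at 226 and Plac8 at 6.63, while the medians of Ly6c2 and Ccr2 were 0.0321 and 0.107 and those of Chil3 and F10 were 0. Ms4a4c, which made up most of the sum, already had a median of 21.8 in naïve retinas. Among neutrophil markers, S100a8 and S100a9 were at 0 in all 10 naïve retinas, and at 18 h their medians were 0.638 and 0.994 RPKM and their highest values 9.24 and 5.15. Camp and Mmp8 reached 3.28 and 2.30 at 18 h, with medians of 0. The sum of the 11 neutrophil markers was 2.86 to 28.8 at 18 h and 5.60 to 83.0 in naïve retinas, in which Csf3r alone made up most of it. The sum of 12 lymphocyte markers was 46.3 to 129 at 18 h and 20.2 to 81.5 in naïve retinas, with Nkg7 at a median of 12.1 at 18 h. Whether these transcripts came from other cells or from the sorted microglia was not tested. Nor was any part of other cells in the values of Bax and the A1 copies.

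At 2 weeks the members lay within the naïve range in most retinas. No member of the 8 tested was called by limma, where 0.0076% of all genes tested were called and 2.87% had an unadjusted p under 0.05; no member was below that level. Bcl2a1a ranged from 120 to 193 RPKM (median 170; log2 fold change 0.12, interval -0.45 to 0.69) and Bcl2a1b from 288 to 807 (median 450; 0.16, interval -0.44 to 0.75). Mcl1 ranged from 11.6 to 25.0 (median 16.4; -0.20, interval -0.78 to 0.39). For these genes the intervals hold no change of 2-fold. Bax ranged from 8.78 to 97.1 (median 44.9; 0.04, interval -0.70 to 0.78). Bcl2a1d ranged from 66.9 to 341 (median 102; 0.57, interval -0.15 to 1.29), its highest value being that of the low-gene retina 1, and a 2-fold rise lies inside its interval. Without the low-gene retinas its highest value was 142 and its log2 fold change 0.55. Bcl2l1, Bid and Bcl2l11 had log2 fold changes of 0.17, 0.63 and 0.17, and the intervals of Bcl2l1 (-1.08 to 1.42) and Bid (-0.70 to 1.96) hold a 2-fold rise, that of Bcl2l1 a 2-fold fall as well. The sum of the A1 copies was 742 ± 295 RPKM (n = 7; 0.18, interval -0.38 to 0.75).

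**Figure D4:**
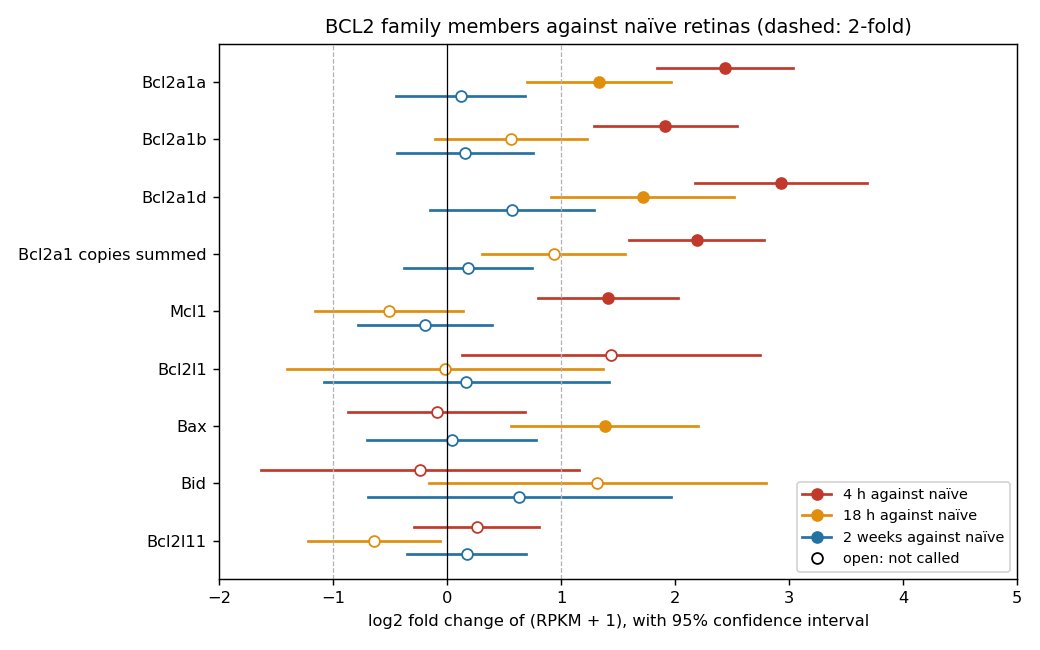
Log2 fold change of (RPKM + 1) against naïve retinas with its 95% confidence interval (horizontal axis) for the 8 members tested and the summed A1 copies at each time after LPS. Filled points were called, open points were not, and the A1 copies and Mcl1 stand highest at 4 h while Bax stands highest at 18 h.

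To see whether time points differed, they were compared directly. From 4 h to 18 h Mcl1 and Bcl2a1b fell and Bax rose, so that 1 of 8 members was called higher and 2 lower, where 2.92% and 2.51% of all genes tested were. Mcl1 fell by 1.92 on the log2 scale (limma adjusted p = 5.5e-04, standard error 0.35) and Bcl2a1b fell by 1.35 (limma adjusted p = 0.020, standard error 0.36), with all 5 retinas at 18 h below all 6 at 4 h for both, a separation seen in 2.79% of all genes tested. Bax was higher at 18 h by a log2 fold change of 1.47 (limma adjusted p = 0.045, standard error 0.45), with 4 of 5 retinas above all 4 h retinas. The difference was -1.11 for Bcl2a1a (adjusted p = 0.051 from limma) and -1.21 for Bcl2a1d (adjusted p = 0.11 from limma), and neither was called, while the sum over the copies fell by 1.25 (adjusted p = 0.022 from limma). Without the 4 low-gene retinas Bcl2a1a and Bcl2a1d were called too, making 5 members. Leaving out 4 h retina 4 or 5 or 18 h retina 5 left Mcl1 as the only member called of the 8.

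From 18 h to 2 weeks Bcl2a1a was the only member called among the 8, with 2.65% of all genes tested called. It fell by 1.21 on the log2 scale (limma adjusted p = 0.040, standard error 0.33), and all 7 retinas at 2 weeks lay below all 5 at 18 h, as 2.07% of all genes tested did. Bax differed by -1.34 (adjusted p = 0.094 from limma) and Bcl2a1d by -1.15 (adjusted p = 0.16 from limma). Without the 4 low-gene retinas these 2 genes were called too, making 3 members, and leaving out any of 18 h retinas 1, 2 and 3 or 2-week retinas 2, 5, 6 and 7 left no member called.

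The order of the levels differed between the times. At 4 h Mcl1 stood above Bax in 5 of 6 retinas, whereas Bax stood above Mcl1 in 9 of 10 naïve, 5 of 5 18 h and 6 of 7 2-week retinas. Bcl2a1b, Bcl2a1a and Bcl2a1d held this order in every retina of the naïve, 4 h and 18 h groups and in 6 of 7 retinas for the last pair at 2 weeks. Mcl1 and Bid did not separate at 18 h, where Mcl1 was higher in 2 of 5 retinas. The mean of Mcl1 was 57.7 RPKM in 4 h retinas and 21.0, 17.8 and 14.9 in naïve, 2-week and 18 h retinas, and these last neighbours differed by less than the larger of their SDs.

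The genes with the most similar course were found by the Euclidean distance between their log2 fold changes at the 3 times and those of each called member, outside the members. The closest were Skil and Aebp2 for Mcl1 (distances 0.13 and 0.13), Mx1 and Rrs1 for Bcl2a1a (0.11 and 0.13), and Ifrd1 and Gm28592 for Bcl2a1b (0.082 and 0.13). Cebpb and Gbp3 were closest to Bcl2a1d (0.084 and 0.18), and Gm13461 and Ckap2 to Bax (0.066 and 0.080). The distances are over 3 comparisons that share the naïve retinas and were not tested.

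Among other genes of cell death, some of both kinds moved at 4 h. Of 13 further BCL2 family genes 9 were tested, and 2 were called higher and 2 lower at 4 h, where 3.68% and 4.39% of all genes tested were. Pmaip1, whose product NOXA is a BH3-only protein that binds MCL1 and A1, rose from 1.32 ± 2.15 to 14.6 ± 8.4 RPKM by 4 h (log2 fold change 2.94, adjusted p = 5.9e-05 from limma). Bcl2a1c rose from 1.65 ± 1.54 to 10.3 ± 3.9 (2.23, adjusted p = 7.0e-05 from limma). Bmf, another BH3-only gene, was down-regulated from 3.96 ± 2.64 to 0.994 ± 0.724 at 4 h and to 0.273 ± 0.182 at 18 h (-1.19 and -1.78, adjusted p = 0.030 and 0.0036 from limma). It was the only one of the 9 called at 18 h, where 2.84% of all genes tested were called higher and 1.85% lower. Bnip3l, a receptor for the removal of mitochondria, fell from 78.4 ± 18.8 to 32.6 ± 14.8 at 4 h (-1.32, adjusted p = 0.0060 from limma). The median log2 fold change of these 9 genes was -0.14 at 4 h and -0.34 at 18 h, against -0.11 and -0.08 over all genes tested.

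Downstream of the mitochondria, 1 of 11 apoptosome and caspase genes was called higher at 4 h, where 3.68% of all genes tested were. Apaf1, which builds the apoptosome with cytochrome c, rose from 0.511 ± 0.485 to 3.12 ± 1.81 RPKM (1.40, adjusted p = 4.0e-04 from limma), and the median of the list was -0.11. The means of Apaf1 at 18 h and 2 weeks were 0.517 and 0.620, so that its passing of the filter may have leaned on the 4 h retinas. None of the 11 was called at 18 h by limma, where 2.84% of all genes tested were called higher and 1.85% lower. Of 5 inhibitor of apoptosis genes 1 was called at 4 h and 0 at 18 h, beside the same shares of all genes tested. At these shares, 0 calls in lists this short do not set them apart from other genes. Birc3, which encodes cIAP2, rose from 5.43 ± 3.92 to 48.9 ± 20.3 at 4 h (3.13, adjusted p = 5.6e-06 from limma), and the median of the list was -0.50 at 4 h and -0.54 at 18 h.

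**Figure D5:**
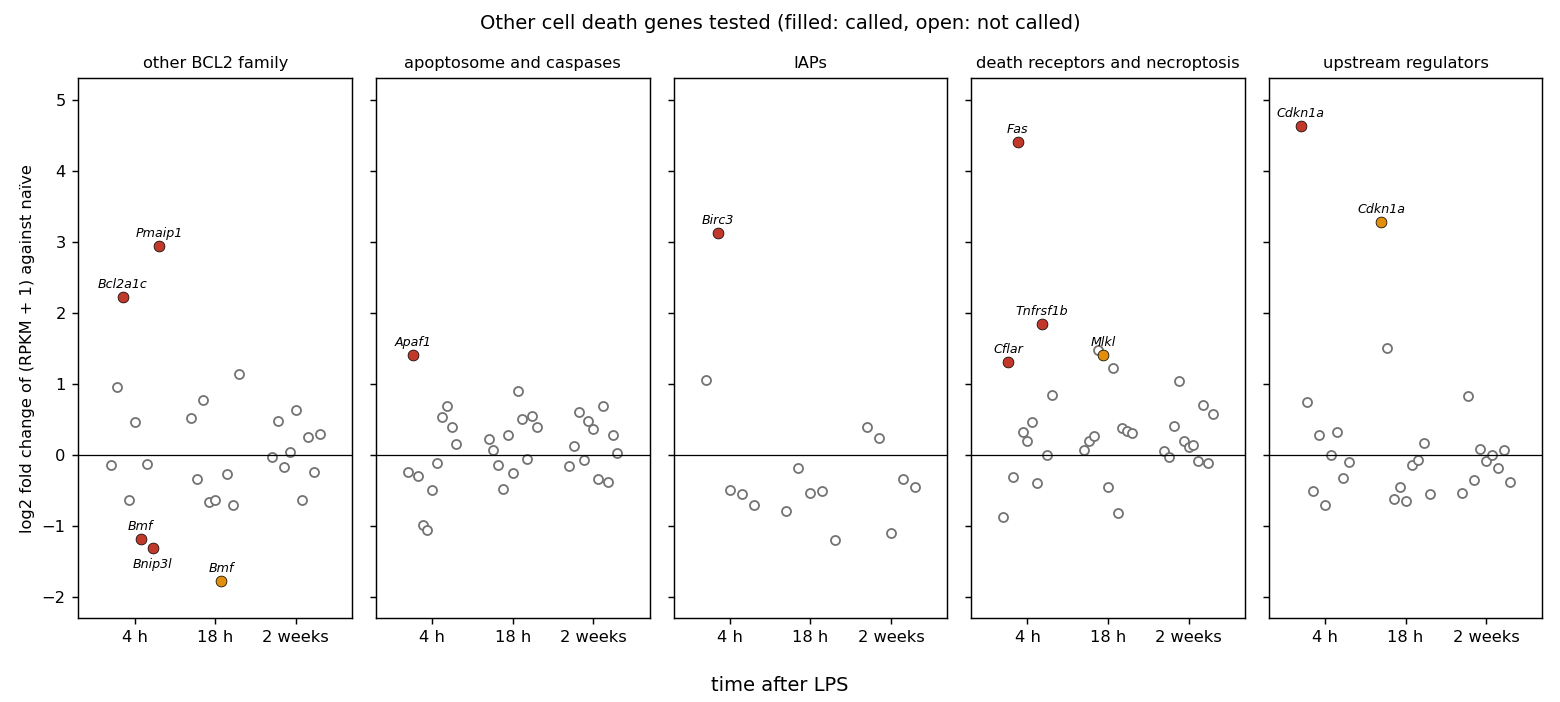
Log2 fold change of (RPKM + 1) against naïve retinas (vertical axis) at each time after LPS for the genes tested of 5 lists of cell death genes. Each point is a gene, and named filled points were called, with Cdkn1a at 4.63 and Fas at 4.40 the highest at 4 h and no gene called at 2 weeks.

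Of 11 death receptor and necroptosis genes tested from 13 listed, 3 were called higher at 4 h and 1 at 18 h, where 3.68% and 2.84% of all genes tested were. The median log2 fold change of the list was 0.31 at both times. The death receptor Fas was at 1.17 ± 1.32 RPKM in naïve retinas and rose to 76.8 ± 79.5 at 4 h (4.40, adjusted p = 5.3e-05 from limma), the TNF receptor Tnfrsf1b from 5.81 ± 7.04 to 17.7 ± 10.2 (1.84, adjusted p = 0.014 from limma), and Cflar, the inhibitor of caspase-8, from 8.71 ± 1.38 to 23.5 ± 6.2 (1.31, adjusted p = 5.6e-04 from limma). Mlkl, the effector of necroptosis, rose from 0.171 ± 0.363 to 2.44 ± 1.63 at 18 h (1.41, adjusted p = 0.0033 from limma). Its means at 4 h and 2 weeks were 0.425 and 0.385 RPKM, so that it passed the filter for testing through its 18 h retinas. Its call and the count of this list at 18 h are therefore not independent of the filter. Of 9 genes listed as upstream regulators 1, Cdkn1a, was called higher at each of these times, and the median of the list was -0.14 at 18 h. Trp53, on the same list, was not called at 4 h (-0.33) or 18 h (0.16). Cdkn1a, which encodes the cell cycle inhibitor p21, rose from 6.65 ± 4.74 to 153 ± 89 at 4 h and 53.8 ± 12.4 at 18 h (4.63 and 3.28, adjusted p = 3.2e-06 and 0.0023 from limma). No gene of these 5 lists was called at 2 weeks by limma.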

How the data were processed

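Microglia from 28 single mouse retinas were profiled by mRNA-Seq after SMART-Seq v4 amplification. The authors trimmed the reads, aligned them to mm10 with STAR 2.5.3a, quantified Ensembl transcripts by expectation-maximisation in Partek, and deposited RPKM values, in which exact zeros and very low values can be products of the estimation. No counts were used. Of the deposited files, 2 hold the authors' own comparisons (fold changes, p-values) and were not used. Samples were grouped by the labels.

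Tests were run on log2(RPKM + 1), over the 13164 of 40021 genes that reached 1 RPKM in 5 or more retinas. The model was fitted with limma 3.58.1 (R 4.3.3), all 28 retinas in 1 fit of the 4 groups allowing for a mean-variance trend, and p-values were adjusted over all genes tested (Benjamini-Hochberg). Calls needed an adjusted p no higher than 0.05 and a fold change of 2 or more, the study's thresholds. The test was tested on simulated data. Named genes are the 10 members, genes of the fixed lists called against naïve (at most 4 for each list and time), and the 2 genes most like each called member. The members and lists were chosen with earlier results of these data known. Coordinates and transcripts are those of GENCODE M21 (GRCm38), promoters those of RefSeq, and figures were drawn with Python 3.11.15. Alternatives covered the pseudocount, filter, covariates, samples, variance model, scaling and each retina left out. Leaving out the 4 retinas with under 8000 genes was chosen after seeing the data.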

Additional observations from a re-analysis of the deposited data

Results flagged for a closer look

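In 40 sets of retinas (10 members in 4 groups), 7 held a retina whose gap to the next was large for the range of its group by Dixon's criterion. Values with a normal spread meet it in about 1 in 20 sets. The criterion was applied to RPKM without a log, whose spread need not be normal, so that 7 of 40 cannot be set against that rate. Retina 1 at 4 h gave 3 of the 7, with Bcl2l1 at 52.3 RPKM (next 18.2), Bax at 54.0 (next 37.0) and Bcl2l11 at 3.40 (next 1.27). Retina 3 at 4 h held Bid at 11.8 RPKM (next 4.25). In naïve retinas, Bcl2l1 stood at 19.1 RPKM in retina 1 (next 3.85) and Bak1 at 3.90 in retina 3 (next 0.522). At 2 weeks, Bcl2a1d stood at 341 RPKM in retina 1 (next 142). The last 2 retinas have under 8000 genes at an RPKM of at least 1, and all 7 values were the highest of their group and came from experiment 1. Causes were not tested.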

How the results depend on the processing

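At 4 h the count of members called was 4 in 15 of 17 alternatives and with each retina left out, 2 in experiment 1 alone (Bcl2a1a, Bcl2a1d) and 5 with array weights. At 18 h the count of 3 became 2, Bax being lost, with a pseudocount of 0.1, no filter or quantile normalisation, 0 with the replicate block, in experiment 1 alone and in experiment 2 alone, and 1 with equal summed RPKM (Bcl2a1d) and on untransformed RPKM (Bax), and it was 2 to 3 with a retina left out. At 2 weeks it was 0 throughout. From 4 h to 18 h the count of 3 became 1 with no filter and with the replicate block, 0 in experiment 1 alone, 7 with array weights, and 5 in the fit of only the groups compared, in experiment 2 alone, on untransformed RPKM and without the 4 retinas with under 8000 genes, and was 1 to 4 with a retina left out. From 18 h to 2 weeks the count of 1 became 0 with no filter, the replicate block, experiment 1 alone, experiment 2 alone, quantile normalisation or equal summed RPKM, and 3 with array weights and without the 4 retinas, and was 0 to 2 with a retina left out. The summed A1 copies passed at 18 h with array weights (1.18, adjusted p = 3.5e-05 from limma) and without naïve retina 3 or 5 (0.82 to 1.08 over retinas left out). The interaction count at 4 h was 1 with array weights (Bcl2a1b) and 2 on untransformed RPKM (Bcl2a1a, Bcl2a1b). The cause was not tested. The labels do not say what the numbers in the sample names stand for. Over 34 same-numbered pairs, deviations from group means correlated at -0.33 to 0.70 (median 0.035), 15 of them over 0.1. The median over 253 other pairs was 0.0054. These correlations cannot show whether some same-numbered retinas shared an animal or a day. The replicate block changed no call at 4 h or 2 weeks and left 0 members called at 18 h.

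Sign changes concerned values that had not been called. At 4 h Bid became 0.24 with the replicate block and 0.43 in experiment 1 alone (-0.57 to 0.16 with a retina left out), and Bax 0.049 in experiment 1 alone (-0.25 to 0.0024). At 18 h Bcl2l1 became 0.30 with a pseudocount of 0.1, 0.086 with experiment as a covariate, 0.025 in experiment 1 alone, 0.27 with array weights, 0.017 with quantile normalisation and 0.18 without the 4 retinas (-0.18 to 0.30 with a retina left out), and Bid -0.016 in experiment 2 alone. At 2 weeks Bcl2l1 became -0.0082 with a pseudocount of 0.1, -0.33 in experiment 1 alone, -0.13 with quantile normalisation and -0.033 on untransformed RPKM (-0.088 to 0.49 with a retina left out). Bcl2a1b became -0.0090 with the replicate block, Mcl1 0.24 in experiment 2 alone, Bax -0.011 in experiment 2 alone and -0.027 with quantile normalisation (-0.16 to 0.39 with a retina left out), Bcl2l11 -0.035 with quantile normalisation, Bcl2a1a -0.0098 on untransformed RPKM (-0.031 to 0.23 with a retina left out) and Bid -0.044 without the 4 retinas. Equal summed RPKM moved the median of all genes from -0.11 to -0.28 at 4 h and from -0.08 to -0.26 at 18 h. At 4 h 485 genes were called higher and 578 lower, or 410 and 1002 on that scale, and at 18 h 374 and 244, or 226 and 471.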
